A study of Neurospora crassa with 18 samples.

Results

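The comparison described here is that of the *cpc-1* deletion strain (*cpc-1Δ*) with the wild-type (WT) strain of *Neurospora crassa* in medium low in glucose, to which no 3-aminotriazole (3-AT) was added. It rests on 4 of the 18 mRNA-seq libraries of the study, 2 from *cpc-1Δ* and 2 from WT, which were chosen by the strain and the medium in their labels. *cpc-1Δ* lacks *cpc-1* and came from the *Neurospora* knockout collection, and the WT strain is FGSC4200, which carries no deletion. Mycelia of both strains were grown in Vogel's minimal salts with 0.1% glucose and 0.17% arginine, in constant light at room temperature. The rest of the study sampled the same strains in 2% glucose medium without arginine, with and without 3-AT, an inhibitor of histidine synthesis, and a *cpc-1Δ* strain with a *cpc-1* transgene under 3-AT. The 2% glucose cultures without 3-AT (2 libraries of *cpc-1Δ* and 3 of WT) serve here as the only other point of reference.

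CPC-1 is the basic leucine zipper activator of cross-pathway control, the *Neurospora* counterpart of GCN4 in Saccharomyces cerevisiae. When 1 amino acid runs short, it raises transcription of enzymes for the synthesis of many amino acids at once. Its translation is controlled through upstream reading frames and the eIF2α kinase CPC-3. Medium with little sugar brings a different set of genes into play. Those for gluconeogenesis, the glyoxylate cycle, the use of other sugars and spore formation are known to be repressed by glucose and induced when it is scarce.

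Levels are RPKM, read numbers corrected for transcript length and library size, which the authors deposited for each library. Where a gene had several transcripts, their RPKM were summed. Differences are log2 fold changes, *cpc-1Δ* over WT, of RPKM + 1, with the standard error (SE) and a *P* adjusted over 9013 genes from limma. The 1 that was added makes the fold changes of genes with few RPKM too small. A gene is said to have risen or fallen in *cpc-1Δ* where this adjusted *P* was below 0.05. An exact permutation test of 2 libraries against 2 cannot give a *P* below 0.333, so no such test of single genes is reported. The labels do not say whether libraries with different replicate numbers came from separate cultures, and the *P* values measure only the spread between libraries.

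The RPKM of a library added up to 546387 and 535612 in *cpc-1Δ* and to 544594 and 545618 in WT, so the 4 libraries have almost the same scale. The files hold RPKM without read counts, so sequencing depth is unknown. A relative depth was estimated from a low quantile of RPKM times gene length, over genes above 0 with a single transcript. Relative to the deepest of the 15 libraries, it was 17.5% and 22.4% in *cpc-1Δ* and 12.2% and 13.9% in WT, the lowest values of all groups. Spearman's rho across 8457 genes was 0.944 between the *cpc-1Δ* libraries, 0.932 between the WT libraries and 0.819 to 0.832 between libraries of different strains. A listed 0 was not read as absence, since 180 genes in *cpc-1Δ* and 239 in WT had a 0 in 1 library beside at least 5 RPKM in its replicate. One of these was *gpd-1*, for a glycolytic enzyme that all cells use, which was listed at 5819 and 0 RPKM in *cpc-1Δ*. β-Tubulin (*Bml*) and actin (*act*), which are common reference genes, rose by log2 fold changes of 0.79 and 0.37.

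*cpc-1* itself was listed at 2.43 and 2.46 RPKM in *cpc-1Δ*, against 430 and 418 RPKM in WT. The log2 fold change was −6.95 (SE, 0.14, adjusted *P* = 3.06e-11, limma), and the WT mean was 173 times the *cpc-1Δ* mean. With the 4 low-glucose libraries fitted alone, the adjusted *P* was 0.00178 (limma). The low values in both mutant libraries fit their labels. Of the 2 annotated genes on either side of *cpc-1*, NCU04048 had 29.8 and 32.8 RPKM in *cpc-1Δ*, against 22.8 and 25.6 RPKM in WT (log2 fold change, 0.36), and NCU04051 had 38.7 and 43.8 RPKM in *cpc-1Δ*, against 52.3 and 54.9 RPKM in WT (−0.37). These neighbors of *cpc-1* passed the threshold in opposite directions, and NCU04049 and NCU04052 did not pass it. The call of NCU04048 was lost without *cpc-1Δ* replicate 2 (0.29, adjusted *P* = 0.0724, limma) or WT replicate 1 (0.28, adjusted *P* = 0.0722, limma), and NCU04052 passed without WT replicate 2 (−2.67, adjusted *P* = 0.0424, limma).

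Over all genes tested, in *cpc-1Δ* 2010 genes rose (22.3% of those tested) and 2426 fell (26.9%), which together is 49.2%. By a log2 fold change of at least 2, 291 genes rose and 387 fell. The median log2 fold change was −0.02 over all genes. After median-ratio scaling, 1935 genes rose and 2411 fell (26.8%), 48.2% in all, and after upper-quartile scaling 2318 rose and 2081 fell. In all, 4277 genes passed the threshold in the same direction with and without median-ratio scaling. For 4909 genes the mean reached 10 RPKM, and among them the median size of the log2 fold change between strains was 0.57, against 0.09 between the *cpc-1Δ* libraries and 0.11 between the WT libraries. For 66.9% of genes the libraries of the strains did not overlap. With nearly 1 gene in 2 past the threshold, the count of any gene list has to be read against these percentages.

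**Figure D1:**
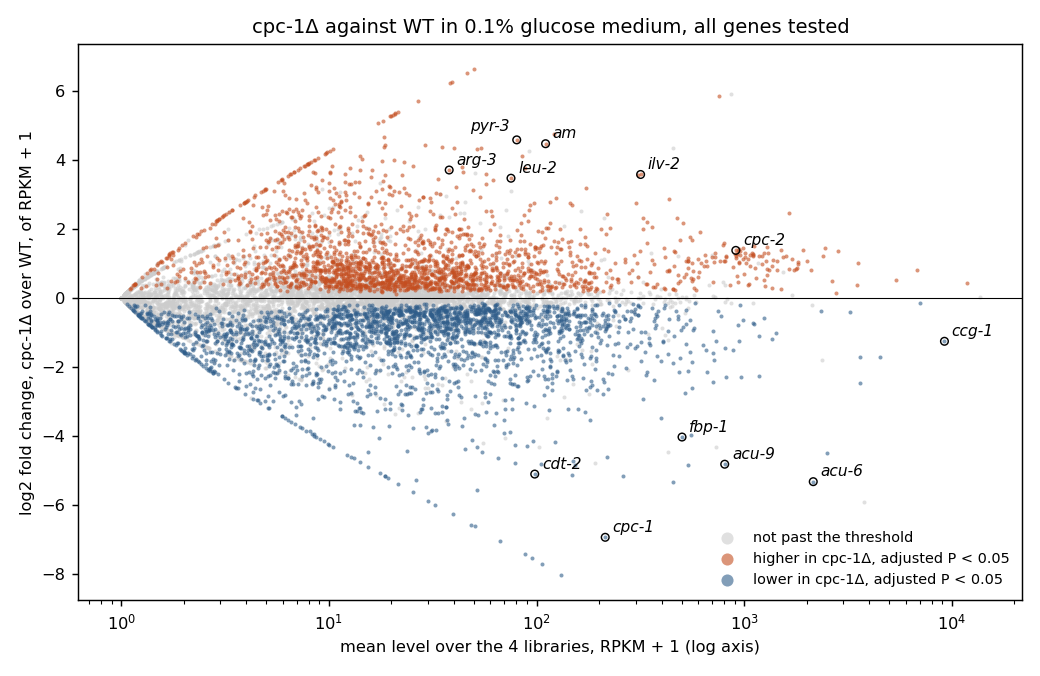
Mean level over the 4 libraries (RPKM + 1, log axis) against the log2 fold change of *cpc-1Δ* over WT, 1 point for each of the 9013 genes. Orange points rose and blue points fell in *cpc-1Δ* (adjusted *P* below 0.05, limma), gray points passed in neither direction. Circles mark *cpc-1* and 11 other named genes. *cpc-1* lies at −6.95 and *acu-6* at −5.33, while *pyr-3* and *am* lie above 4.

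CPC-1 targets were taken as a list of 14 genes of amino acid synthesis, of which 10 could be matched by symbol. The paper names these genes as regulated by CPC-1, citing earlier work, and measured them by quantitative RT-PCR under 3-AT. There all 14 had more mRNA in *cpc-1Δ* with the *cpc-1*(WT) transgene than in *cpc-1Δ*. How the 14 were picked is not stated, so the list is not taken here as independent evidence of a direction. In 0.1% glucose medium, 5 of these 10 rose in *cpc-1Δ*, 1 fell and 4 did not pass the threshold, with a median log2 fold change of 0.23. Of all genes, 22.3% rose and 26.9% fell. *arg-10*, for argininosuccinate lyase, the last step of arginine synthesis, had 62.2 and 62.1 RPKM in *cpc-1Δ*, against 36.7 and 36.9 RPKM in WT (log2 fold change, 0.74, SE, 0.08, adjusted *P* = 1.47e-05, limma). Both *cpc-1Δ* libraries were above both WT libraries. *aro-8* rose by 0.91 on the log2 scale, with 65.0 and 64.6 RPKM in *cpc-1Δ*, against 33.5 and 34.8 RPKM in WT. *thr-4* and *aro-7* rose by 0.42 and 0.40. The reference gene *Bml* rose by 0.79, which is more than *arg-10*, *thr-4* and *aro-7* did.

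The target that fell was *ppm-3*, with 51.1 and 51.3 RPKM in *cpc-1Δ*, against 75.2 and 70.7 RPKM in WT (−0.50). *his-3*, for a multifunctional enzyme of histidine synthesis, had 86.1 and 78.2 RPKM in *cpc-1Δ*, against 84.4 and 88.4 RPKM in WT. Its libraries overlapped between strains, and the log2 fold change was −0.07 (SE, 0.07). *arg-12*, for ornithine carbamoyltransferase, and *thr-5* had log2 fold changes of −0.09 and −0.15 with overlapping libraries, and *thr-5* passed the threshold without *cpc-1Δ* replicate 1 (−0.35, adjusted *P* = 0.0139, limma). *trp-3*, for tryptophan synthase, had 42.8 and 44.5 RPKM in *cpc-1Δ*, against 42.3 and 42.0 RPKM in WT. Its SE of 2.07 came from the spread over all 15 libraries. *hom-1*, for homoserine dehydrogenase, was at 86.8 and 85.1 RPKM in *cpc-1Δ*, against a listed 0 and 51.9 RPKM in WT. Its log2 fold change of 3.58 was 0.72 without WT replicate 1, where the 0 is, and still passed the threshold. Without *cpc-1Δ* replicate 1 or 2 it did not (adjusted *P* = 0.109 and 0.106, limma). When only the 4 libraries were fitted, 2 of the 10 targets rose and 1 fell, while 1490 of all genes rose and 1865 fell.

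**Figure D2:**
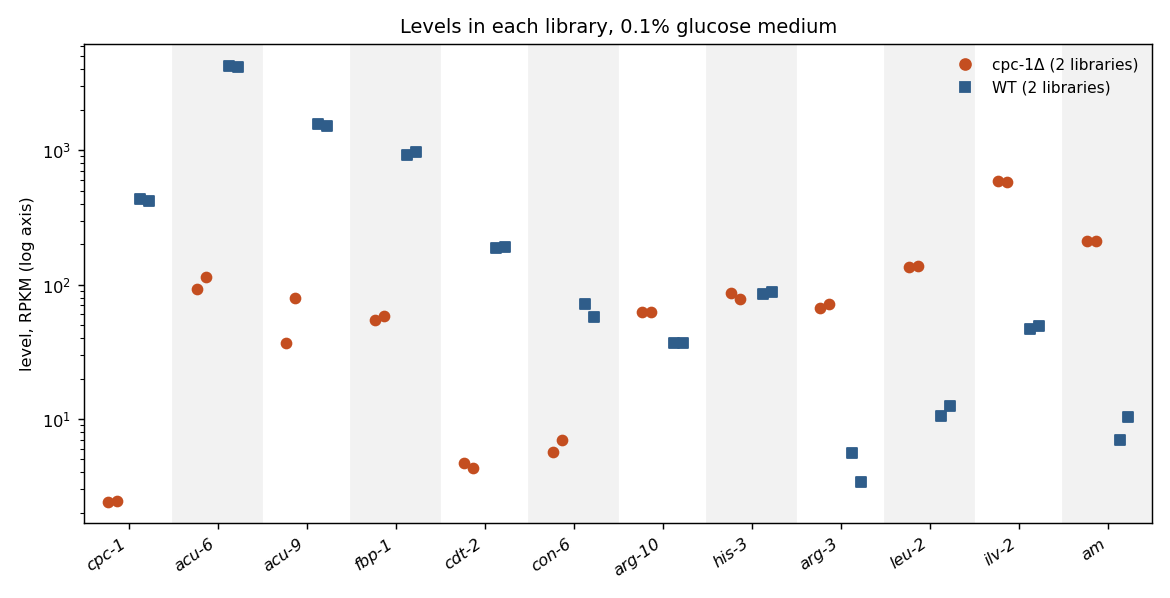
RPKM (log axis) of 12 genes in each library in 0.1% glucose medium, with *cpc-1Δ* as orange circles on the left of each gene and WT as blue squares on its right, 2 libraries each. *cpc-1*, the genes of gluconeogenesis, *cdt-2* and *con-6* lie lower in *cpc-1Δ*, *his-3* overlaps between strains, and *arg-10*, *arg-3*, *leu-2*, *ilv-2* and *am* lie higher in *cpc-1Δ*.

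Genes of amino acid synthesis were then counted in 8 pathway lists, in which 54 genes were matched by symbol. Here and in the lists below, other listed symbols found no match or named a gene already counted. The lists thus do not stand for whole pathways. For threonine, serine and homoserine synthesis 4 genes were matched from 14 symbols, and for methionine and cysteine synthesis 11 from 21. In *cpc-1Δ*, 32 of them rose, 4 fell and 18 did not pass the threshold, against 22.3% and 26.9% of all genes. Their median log2 fold change was 0.61, against −0.02 for all genes. The summed level of the 54 genes was 8439 and 8251 RPKM in *cpc-1Δ*, against 3969 and 3989 RPKM in WT.

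The arginine list had 10 matched genes, of which 8 rose and 1 fell. *arg-2* and *arg-3* encode the small and large subunits of the carbamoyl phosphate synthetase that serves arginine synthesis. *arg-3* had 67.0 and 71.8 RPKM in *cpc-1Δ*, against 5.61 and 3.38 RPKM in WT (log2 fold change, 3.71, SE, 0.15, adjusted *P* = 4.99e-09, limma). *arg-2*, whose translation arginine represses through a peptide encoded upstream, had 95.7 and 96.7 RPKM in *cpc-1Δ*, against 27.6 and 33.2 RPKM in WT (1.64). Both subunits were thus higher in each mutant library than in any WT library. *arg-5* rose by 1.14, and *arg-1*, *arg-4*, *arg-6* and *arg-10* by 0.45 to 0.74. *arg-13*, for a mitochondrial carrier of basic amino acids, was at 7.99 and 7.18 RPKM in *cpc-1Δ* and listed at 0 in both WT libraries. *arg-14*, for acetylglutamate synthase, which starts the pathway, fell, with 24.4 and 25.1 RPKM in *cpc-1Δ*, against 47.2 and 47.3 RPKM in WT (−0.91).

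Larger differences were seen for the branched-chain amino acids. All 4 genes matched from the 8 symbols of this list rose, with a median log2 fold change of 2.55. *ilv-2*, for ketol-acid reductoisomerase of isoleucine and valine synthesis, had 591 and 578 RPKM in *cpc-1Δ*, against 46.5 and 49.5 RPKM in WT (3.58, SE, 0.12, adjusted *P* = 1.44e-09, limma). Of the leucine pathway, *leu-4*, for isopropylmalate synthase, rose by 0.84, *leu-2*, for the isomerase, by 3.47 and *leu-1*, for the dehydrogenase, by 1.64. *leu-2* had 136 and 138 RPKM in *cpc-1Δ*, against 10.6 and 12.4 RPKM in WT. *ilv-6*, which lies outside the list, was at 67.2 and 77.7 RPKM in *cpc-1Δ*, against a listed 0 and 11.9 RPKM in WT. Its log2 fold change was 4.35, and 2.50 without WT replicate 1.

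Of 4 lysine genes, *lys-3*, *lys-6* and *lys-5* rose, by 3.03, 3.02 and 1.11. *lys-3* had 41.1 and 40.6 RPKM in *cpc-1Δ*, against 5.12 and 3.28 RPKM in WT. *lys-7* was listed at 0 in all 4 libraries except 1 of WT (47.9 RPKM) and did not pass the threshold. Of 9 aromatic amino acid genes, 5 rose and 1 fell. *aro-1*, for the pentafunctional AROM protein of the shikimate pathway, had 66.2 and 68.2 RPKM in *cpc-1Δ*, against 13.7 and 9.92 RPKM in WT (2.43), and *aro-3* rose by 1.83. The tryptophan branch showed small differences, with *trp-1* at 0.26 and *trp-4* at −0.32, and the call of *trp-1* was lost without *cpc-1Δ* replicate 1 or WT replicate 1 (0.24 and 0.20, adjusted *P* = 0.0565 and 0.0766, limma). The call of *trp-4* was lost without *cpc-1Δ* replicate 2 or WT replicate 2 (−0.18 and −0.25, adjusted *P* = 0.144 and 0.0973, limma). Of 11 genes of methionine and cysteine synthesis, 6 rose and none fell at the threshold used. Among them were *met-8*, for the enzyme that makes methionine from homocysteine, which had 3616 and 3553 RPKM in *cpc-1Δ*, against 1312 and 1292 RPKM in WT (1.46), and *cys-11*, which rose by 2.17.

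The histidine list was divided. *his-2* had 81.0 and 74.1 RPKM in *cpc-1Δ*, against 26.1 and 28.3 RPKM in WT (1.48), while *his-6* had 41.6 and 39.9 RPKM in *cpc-1Δ*, against 70.0 and 61.3 RPKM in WT (−0.67). *his-3* and *his-7* did not pass the threshold. In the list of proline, glutamate, glutamine and asparagine synthesis, 3 of 8 genes rose and 1 fell. *am*, for the NADP-dependent glutamate dehydrogenase that fixes ammonium into glutamate, had 210 and 211 RPKM in *cpc-1Δ*, against 7.03 and 10.3 RPKM in WT (4.47, SE, 0.12, adjusted *P* = 2.84e-10, limma). This was the strongest rise in all 8 lists, with the mean in *cpc-1Δ* 24.3 times that in WT. *pro-4* rose by 1.79, and *gln-2*, for a glutamine synthetase subunit, fell by 0.54 on the log2 scale.

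**Figure D3:**
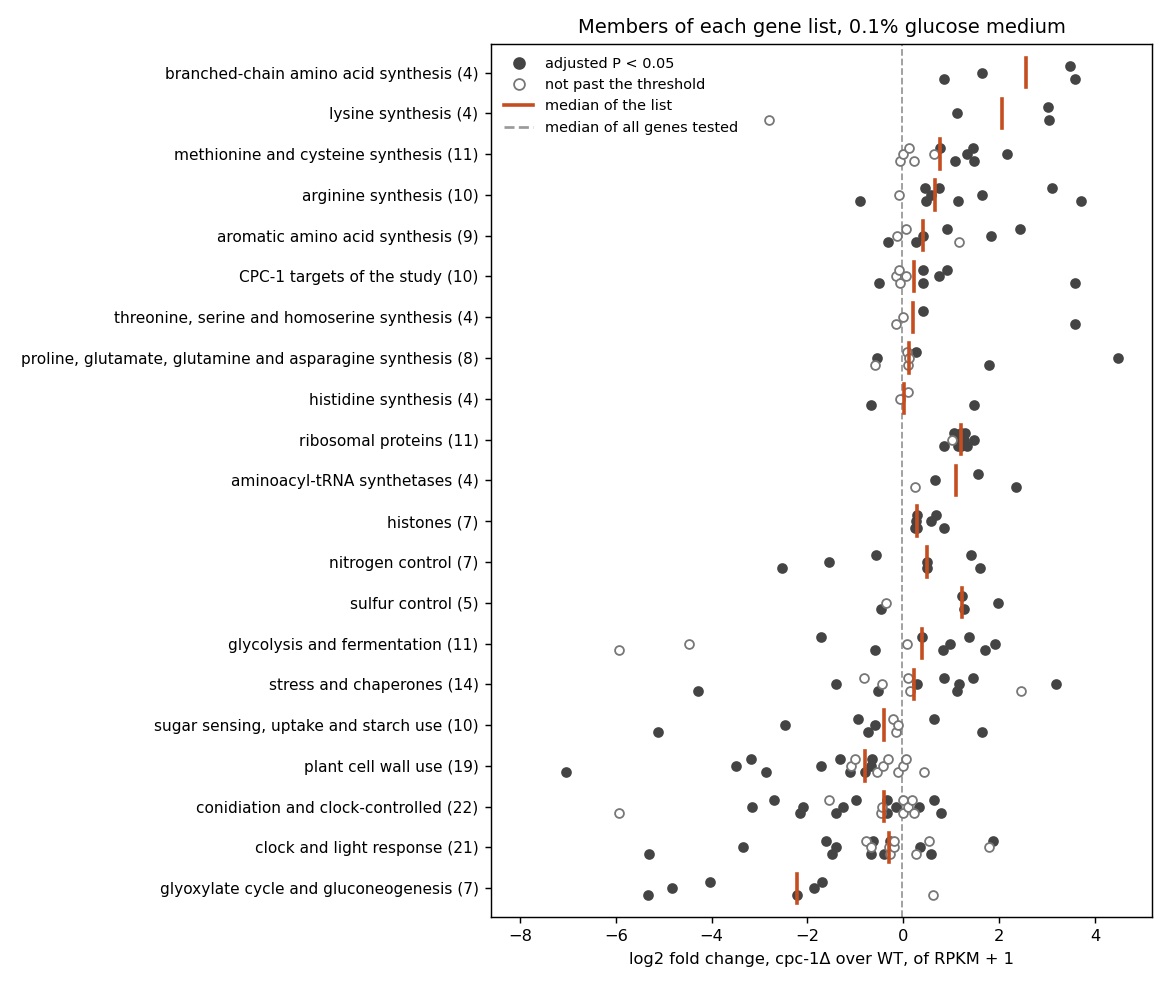
Log2 fold change of *cpc-1Δ* over WT for the members of 21 gene lists, with the number tested in parentheses. Filled points passed the threshold (adjusted *P* below 0.05, limma), open points did not, orange bars give the median of each list and the dashed line that of all genes tested (−0.02). The median is highest for branched-chain amino acid synthesis (2.55) and lowest for the glyoxylate cycle and gluconeogenesis (−2.23).

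Whether the strain difference depended on the medium was tested as the difference between the log2 fold changes in 0.1% and in 2% glucose medium, after median-ratio scaling. Scaling is needed because, in 2% glucose medium, the RPKM added up to 515150 and 516957 in *cpc-1Δ*, against 363953 to 370927 in WT. The scale of the values goes with the strain there, and a batch cannot be told apart from the strain in that medium. The media also differ in arginine. The strain difference depended on the medium for 3780 genes (41.9%), and it was more positive in 0.1% glucose medium for 1779 of them (19.7% of all genes). On the values as deposited it did so for 4574 genes (50.7%), of which 898 were more positive (9.96% of all genes), so the balance of directions depended on the scaling.

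All 10 CPC-1 targets had a negative log2 fold change in 2% glucose medium after scaling, with a median of −1.44. Over the 4909 genes whose mean level reached 10 RPKM, the median there was −0.007. Of the targets, 7 fell in 2% glucose medium, where 40.2% of all genes passed the threshold in either direction. The share of all genes that fell there was not counted separately. For 8 of the 10 the strain difference was more positive in 0.1% glucose medium after scaling, and for none was it more negative. On the values as deposited it was more positive for 6 and more negative for 1, *thr-5*. *arg-10* was at 62.2 and 62.1 RPKM in *cpc-1Δ* and at 36.7 and 36.9 RPKM in WT in 0.1% glucose medium. In 2% glucose medium it was at 42.8 and 46.6 RPKM in *cpc-1Δ* and at 198, 195 and 207 RPKM in WT. The level in WT was thus the one that differed most between media. The log2 fold change was 0.72 in 0.1% and −2.71 in 2% glucose medium after scaling, and these differed by 3.43 (SE, 0.09, adjusted *P* = 3.5e-10, limma). For *his-3*, which did not pass the threshold in 0.1% glucose medium, the difference between media was 0.75 (adjusted *P* = 1.04e-05, limma). On the values as deposited this difference was 0.19 and did not pass the threshold (adjusted *P* = 0.119, limma). For *thr-5* it was 0.10 and did not pass the threshold after scaling (adjusted *P* = 0.64, limma), and −0.46 as deposited (adjusted *P* = 0.0314, limma), so its direction depended on the scaling.

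Of the 54 genes of amino acid synthesis, 33 fell and 7 rose in 2% glucose medium after scaling. In 0.1% glucose medium, 32 rose and 4 fell. The shares of all genes that rose or fell in 2% glucose medium were not counted, so these counts have no background by direction. In either direction, 40.2% of all genes passed the threshold there. The median log2 fold change of the 54 genes there was −0.61, against −0.007 for the 4909 genes whose mean level reached 10 RPKM. The strain difference was more positive in 0.1% glucose medium for 39 of them and more negative for 1 after scaling, and for 30 and 8 on the values as deposited. *ilv-2*, at 591 and 578 RPKM in *cpc-1Δ* and 46.5 and 49.5 RPKM in WT in 0.1% glucose medium, was at 309 and 312 RPKM in *cpc-1Δ* and at 316, 328 and 248 RPKM in WT in 2% glucose medium. *am* was at 844 and 838 RPKM in *cpc-1Δ* and at 747, 756 and 768 RPKM in WT in 2% glucose medium, above its level in either strain in 0.1% glucose medium. The smallest levels of *ilv-2*, *am* and *arg-3* in any culture were those in WT in 0.1% glucose medium.

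**Figure D4:**
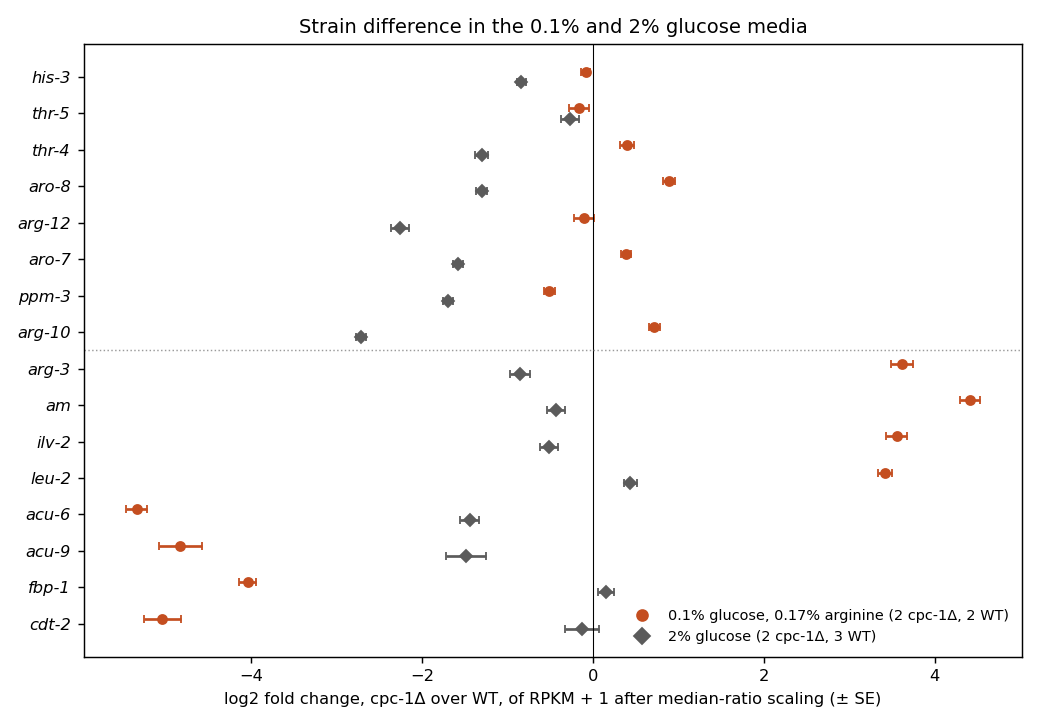
Log2 fold change of *cpc-1Δ* over WT after median-ratio scaling, with the SE as bars, in 0.1% glucose medium with arginine (orange circles, 2 libraries of each strain) and in 2% glucose medium (gray diamonds, 2 of *cpc-1Δ* and 3 of WT). Above the dotted line are 8 CPC-1 targets, all below 0 in 2% glucose medium, with *arg-10* at 0.72 and −2.71. Below it are 4 other genes of amino acid synthesis and 4 of carbon use, of which *acu-6* lies at −5.34 and −1.44.

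Of the other 4 genes tested in a list of cross-pathway regulators in 0.1% glucose medium, *cpc-2* rose, *cpc-3* fell and *ngf-1* did not pass the threshold. *ada-1*, whose role in the response was not checked here, was listed at 0 in all 4 libraries, so its levels there could not be compared. *cpc-2*, for a RACK1-like protein of the ribosome, had 1318 and 1312 RPKM in *cpc-1Δ*, against 515 and 497 RPKM in WT (log2 fold change, 1.38). *cpc-3*, for the kinase that senses uncharged tRNA, had 11.005 and 11.4 RPKM in *cpc-1Δ*, against 15.7 and 18.2 RPKM in WT (−0.56). The libraries of the strains did not overlap for either gene. Of 11 genes for ribosomal proteins, 10 rose, with a median log2 fold change of 1.20. *crp-2* had 1288 and 1255 RPKM in *cpc-1Δ*, against 518 and 532 RPKM in WT (1.27). Only *crp-5* did not pass the threshold, with an SE of 2.52, and it passed when the 4 libraries were fitted alone (adjusted *P* = 0.00760, limma). The summed level of the 11 genes was 15657 and 15385 RPKM in *cpc-1Δ*, against 6922 and 7056 RPKM in WT. Of 4 genes for aminoacyl-tRNA synthetases 3 rose, with *cyt-18*, the mitochondrial tyrosyl-tRNA synthetase, at 1.55. The call of *leu-6* (2.36) was lost without WT replicate 2 (1.42, adjusted *P* = 0.0794, limma).

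All 7 genes matched from 15 symbols of nitrogen control passed the threshold, of which 4 rose and 3 fell. *nit-2*, for the GATA factor that activates nitrogen genes, had 40.4 and 43.1 RPKM in *cpc-1Δ*, against 13.5 and 12.8 RPKM in WT (1.59). *nmr*, whose product restrains NIT-2, had 2.74 and 4.73 RPKM in *cpc-1Δ*, against 24.6 and 27.2 RPKM in WT (−2.54). *nit-6*, for nitrite reductase, rose by 1.42. *nit-3*, for nitrate reductase, rose by 0.50 at a low level, with 0.97 and 1.37 RPKM in *cpc-1Δ*, against 0.51 and 0.54 RPKM in WT, and its call was lost without *cpc-1Δ* replicate 2 (0.37, adjusted *P* = 0.0884, limma). *xdh-1*, for the xanthine dehydrogenase of purine breakdown, fell (−1.56). When the 4 libraries were fitted alone, 2 genes rose and 2 fell. Of 5 sulfur genes, *cys-3*, for the bZIP activator of sulfur uptake, *cys-14*, for a sulfate permease, and *scon-2* rose, by 1.26, 1.97 and 1.23, and *scon-3* fell (−0.47).

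Genes that draw on arginine did not move together. *aga-1*, for arginase, had 267 and 268 RPKM in *cpc-1Δ*, against 273 and 269 RPKM in WT, and *ota*, for ornithine transaminase, had 211 and 219 RPKM in *cpc-1Δ*, against 227 and 236 RPKM in WT. Neither passed the threshold. *spe-1*, for ornithine decarboxylase, which leads to polyamines, had 176 and 161 RPKM in *cpc-1Δ*, against 23.0 and 25.7 RPKM in WT (2.74, SE, 0.09, adjusted *P* = 8.34e-10, limma). *spe-2*, for the S-adenosylmethionine decarboxylase of the same pathway, was at 46.9 and 42.1 RPKM in *cpc-1Δ*, against 9.12 RPKM and a listed 0 in WT. It rose by 3.84, and by 2.17 without WT replicate 2. *pyr-3*, for the carbamoyl phosphate synthetase and aspartate carbamoyltransferase of pyrimidine synthesis, had 155 and 150 RPKM in *cpc-1Δ*, against 2.65 and 10.2 RPKM in WT (4.58). The size of this rise depended on the WT library, at 3.78 without WT replicate 1 and 5.39 without WT replicate 2.

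In the opposite direction stood genes for growth on carbon sources other than glucose. Of 7 genes matched from 13 symbols of the glyoxylate cycle and gluconeogenesis, 6 fell and none rose, with a median log2 fold change of −2.23. *acu-6*, for phosphoenolpyruvate carboxykinase, which starts gluconeogenesis, had 93.5 and 114 RPKM in *cpc-1Δ*, against 4254 and 4141 RPKM in WT (−5.33, SE, 0.12, adjusted *P* = 7.76e-11, limma). The WT mean was 40.5 times that of *cpc-1Δ*. *fbp-1*, for fructose-1,6-bisphosphatase at the other end of the pathway, had 54.8 and 58.4 RPKM in *cpc-1Δ*, against 922 and 969 RPKM in WT (−4.04). *acu-9*, for malate synthase of the glyoxylate cycle, had 36.5 and 78.9 RPKM in *cpc-1Δ*, against 1577 and 1527 RPKM in WT (−4.83). *acu-5*, for acetyl-CoA synthetase, fell by 1.87 on the log2 scale, and *acu-8* and *acu-15* by 2.23 and 1.69. *acu-3*, for isocitrate lyase, was at 53.3 and 47.7 RPKM in *cpc-1Δ*, against 1128 RPKM and a listed 0 in WT. It did not pass the threshold (0.61), and its value was −4.46 without WT replicate 2 and 5.69 without WT replicate 1.

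In 2% glucose medium the 6 genes that fell lay between 10.7 and 141 RPKM in *cpc-1Δ*, and between 9.56 and 178 RPKM in WT. Each was lower there than in the same strain in 0.1% glucose medium. *acu-6* had 10.7 and 12.4 RPKM in *cpc-1Δ*, against 21.1, 23.7 and 22.5 RPKM in WT there, and *fbp-1* had 17.99 and 18.02 RPKM in *cpc-1Δ*, against 9.56, 11.3 and 11.4 RPKM in WT. For 6 of the 7 genes the strain difference was more negative in 0.1% glucose medium, both after scaling and as deposited, with a scaled difference of −3.90 for *acu-6* (SE, 0.17, adjusted *P* = 1.74e-08, limma) and of −4.20 for *fbp-1* (SE, 0.14, adjusted *P* = 2.22e-09, limma).

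Of 10 genes for the uptake and sensing of sugars and the use of starch, 5 fell, 2 rose and 3 did not pass the threshold. *cdt-2* and *cdt-1* encode transporters of cellodextrins, the breakdown products of cellulose. *cdt-2* had 4.71 and 4.31 RPKM in *cpc-1Δ*, against 188 and 191 RPKM in WT (−5.11), and *cdt-1* had 37.9 and 32.2 RPKM in *cpc-1Δ*, against 193 and 206 RPKM in WT (−2.48). *hgt-1*, for a high-affinity glucose transporter, fell by 0.59 on the log2 scale. *cre-1*, for the repressor of genes for other carbon sources when glucose is present, had 124 and 126 RPKM in *cpc-1Δ*, against 43.3 and 35.999 RPKM in WT (1.64). Both *cpc-1Δ* libraries were above both WT libraries for *cre-1*. *rca-1* rose by 0.64.

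Of 19 genes for the use of plant cell walls, 10 fell and none rose at the threshold used, with a median log2 fold change of −0.80. *clr-2*, for an activator of cellulase genes, had 0.38 and 0.36 RPKM in *cpc-1Δ*, against 9.50 and 13.4 RPKM in WT (−3.17), and *clr-1* fell by 1.11 on the log2 scale. *gh10-2*, for a xylanase, was listed at 0 in both *cpc-1Δ* libraries and at 137 and 125 RPKM in WT. *gh11-2*, for another xylanase, had 0.28 and 0.44 RPKM in *cpc-1Δ*, against 12.7 and 16.1 RPKM in WT (−3.50). *cbh-1* fell by 1.32 on the log2 scale, while other cellulase genes such as *gh6-2* (13.5 and 10.5 RPKM in *cpc-1Δ*, against 7.71 and 9.60 RPKM in WT) did not pass the threshold. None of the 7 genes of the quinic acid cluster passed it, and their highest value in any of the 4 libraries was 11.01 RPKM. Of these, *qa-3* and *qa-Y* were listed at 0 in all 4 libraries and could not pass.

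Glycolysis showed smaller differences, with 6 of 11 genes up and 2 down, the 11 being matched from 26 symbols. *ace-8* rose the most, with 978 and 962 RPKM in *cpc-1Δ*, against 252 and 260 RPKM in WT (1.92). *emp-3* rose by 1.71 and *emp-6* by 1.36. *cfp*, for pyruvate decarboxylase, had 1587 and 1639 RPKM in *cpc-1Δ*, against 853 and 792 RPKM in WT (0.97), whereas *adh-1*, for alcohol dehydrogenase, had 2120 and 2092 RPKM in *cpc-1Δ*, against 6971 and 6812 RPKM in WT (−1.71). *gpd-1* and *gpi-1*, each listed at 0 in 1 *cpc-1Δ* library, did not pass the threshold, but did when that 0 alone stood for *cpc-1Δ* (−12.18 for *gpd-1* without replicate 1 and −9.11 for *gpi-1* without replicate 2). *hex-1* was counted in this list, but in *Neurospora* it encodes the protein of Woronin bodies, which plug septal pores, and it rose by 0.82. Of 5 genes for storage sugars, *gsy-1*, for glycogen synthase, *gnn* and *tre-2* rose by 0.40 to 0.51, and *ccg-9* and *tre-1*, for a trehalose synthase and a trehalase, fell (−2.17 and −1.56). The call of *ccg-9* was lost without *cpc-1Δ* replicate 1 or WT replicate 1 (−1.47 and −1.95, adjusted *P* = 0.123 and 0.0732, limma).

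Mycelial cultures can hold cells that form conidia, and genes of this program were lower in *cpc-1Δ*. Of 7 markers of conidia, 6 fell. Their summed level was 155 and 147 RPKM in *cpc-1Δ*, against 502 and 488 RPKM in WT, and *con-13* was listed at 0 in 1 *cpc-1Δ* library. *con-6* had 5.70 and 7.002 RPKM in *cpc-1Δ*, against 72.2 and 57.7 RPKM in WT (−3.16), and was listed at 0 in all libraries from 2% glucose medium. *con-8* and *con-10* fell by 2.10 and 2.69 on the log2 scale. In 2% glucose medium, after median-ratio scaling, 3 of the 7 markers rose in *cpc-1Δ* and 1 fell. Among those that rose there were *con-8* (1.48) and *con-10* (2.63). *eas*, for the hydrophobin of the spore coat, had 18.7 and 17.5 RPKM in *cpc-1Δ*, against 53.3 and 56.6 RPKM in WT, and passed the threshold only when the 4 libraries were fitted alone (adjusted *P* = 0.00451, limma) or isolated values of 0 were left out. The part of conidia in the differences of other genes was not tested, and fewer cells of a type cannot be told apart from less mRNA in each.

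In the wider list of conidiation and clock-controlled genes, 10 of 22 fell and 3 rose. *ccg-1*, which is repressed by glucose and controlled by the clock, had 5306 and 5554 RPKM in *cpc-1Δ*, against 13070 and 12940 RPKM in WT (−1.26). *bli-3*, which is induced by light, fell by 2.15 on the log2 scale. Of 21 genes of the clock and the light response, 9 fell and 3 rose. *frq* and *wc-1*, the core clock genes, did not pass the threshold, with *frq* at 32.8 and 32.7 RPKM in *cpc-1Δ*, against 38.7 and 42.2 RPKM in WT.

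Members of the list of clock and light response genes that act on carotenoids, the orange pigments of *Neurospora*, were *al-1*, *al-2*, *al-3*, *ylo-1* and *cao-2*. *al-1*, for phytoene desaturase, had 51.1 and 48.6 RPKM in *cpc-1Δ*, against 141 and 143 RPKM in WT (−1.49). *al-2*, for phytoene synthase, and *ylo-1* fell by 0.39 and 1.41 on the log2 scale. *al-3*, for geranylgeranyl diphosphate synthase, was listed at 0 in both *cpc-1Δ* libraries and at 84.4 and 17.1 RPKM in WT. *nop-1*, for an opsin, had 4.10 and 5.97 RPKM in *cpc-1Δ*, against 59.4 and 60.5 RPKM in WT (−3.35). *cao-1* fell by 1.61 on the log2 scale. *cao-2*, at 26.7 and 23.0 RPKM in *cpc-1Δ*, against a listed 0 and 55.5 RPKM in WT, did not pass the threshold (1.78), and its value was −1.13 without the listed 0. Except for *cao-2*, these genes were lower in each *cpc-1Δ* library than in either WT library.

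Of 10 tested genes of sexual development and mating, 1 rose and 3 fell. *mfa-1*, for a pheromone precursor, had 130 and 137 RPKM in *cpc-1Δ*, against 900 and 914 RPKM in WT (−2.76, adjusted *P* = 1.82e-10, limma). It also fell in 2% glucose medium, with 5.65 and 5.63 RPKM in *cpc-1Δ*, against 53.4, 51.4 and 54.5 RPKM in WT. *matA-1*, *matA-2* and *matA-3* were listed at 0 in all 15 libraries of both strains. Of 5 markers of sexual structures matched by symbol, *asd-1* rose (0.93) and *asd-3* and *poi-2* fell, and their summed level was 75.9 and 67.6 RPKM in *cpc-1Δ*, against 132 and 106 RPKM in WT.

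In a list of 14 genes for stress and chaperones, 6 rose and 3 fell. *hsp70-2* had 377 and 247 RPKM in *cpc-1Δ*, against 30.7 and 34.4 RPKM in WT (3.19), and *hsp60*, *hsp70-1*, *hsp88* and *hsp80* rose by 0.86 to 1.45. *hsp30*, for a small heat shock protein, fell (−1.40), as did *sod-1*, for a superoxide dismutase (−0.52). *cat-2*, for a catalase-peroxidase, was at 53.1 RPKM and a listed 0 in *cpc-1Δ*, against 199 and 102 RPKM in WT, and its log2 fold change of −4.29 was −1.41 without *cpc-1Δ* replicate 2 (adjusted *P* = 0.231, limma). The call was also lost without WT replicate 1 or 2 (adjusted *P* = 0.124 and 0.0580, limma). All 7 histone genes rose, with a median log2 fold change of 0.30, and 3 of them did when the 4 libraries were fitted alone. They lay between 0.25 and 0.84, beside 0.31 to 0.79 for *act*, *Bml* and the α-tubulin genes *tba-1* and *tba-2*.

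The genes with the greatest differences were ranked among 3034 genes that passed the threshold with and without scaling, had a mean of at least 10 RPKM, were above 0 in both strains and did not overlap between strains. Below *cpc-1*, the 10 that fell the most included NCU07133, NCU09698, *acu-6*, NCU08771, NCU02238, *cdt-2*, NCU10732, NCU09958 and *acu-9*, with log2 fold changes of −5.59 to −4.83. NCU09698 had 19.9 and 21.4 RPKM in *cpc-1Δ*, against 862 and 904 RPKM in WT, and NCU10732 had 36.3 and 33.9 RPKM in *cpc-1Δ*, against 1062 and 1014 RPKM in WT. The 6 genes that carry only a locus tag are given by that tag alone. With a symbol, *gh28-2*, for a pectin-degrading enzyme, *gla-2*, for a glucoamylase, *gh3-3*, for a β-glucosidase family member, and *fdh*, for formate dehydrogenase, were among the next, at −4.79, −4.38, −4.32 and −3.98. *gla-2* had 14.5 RPKM and a listed 0 in *cpc-1Δ*, against 77.3 and 84.2 RPKM in WT, and its value was −2.40 without *cpc-1Δ* replicate 2.

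Among the 10 that rose the most, *pyr-3*, *am* and *ilv-6* have symbols, and NCU03757, NCU03117, NCU01257, NCU07547, NCU05650, NCU05782 and NCU03092 do not. NCU03117 had 234 and 231 RPKM in *cpc-1Δ*, against 6.26 and 9.21 RPKM in WT (4.76), and NCU05650 had 54.9 and 54.6 RPKM in *cpc-1Δ*, against 1.44 and 1.75 RPKM in WT (4.43). NCU03757, at 1261 and 1268 RPKM in *cpc-1Δ*, had a listed 0 and 477 RPKM in WT, so that its log2 fold change of 5.86 was 1.41 without WT replicate 1, and its call was lost without either *cpc-1Δ* replicate (adjusted *P* = 0.0910 for each, limma). With a symbol, *spe-2*, *arg-3*, *fkr-4*, *hom-1*, *ilv-2*, *leu-2* and *prm-1* came next, at 3.84 to 3.43.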

How the data were processed

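RPKM values for 10785 annotated transcripts per library were deposited by the authors, with replicates kept apart. TopHat2 and Cufflinks are named in the submitters' processing notes, without versions. The genome build and the total behind the RPKM are not given in the sources used here. RPKM were summed over transcripts (9730 genes, 898 with more than 1 transcript), and an NC12 table gave symbols for 1118. Of the deposited files, 3 of a transgenic strain were not used.

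log2(RPKM + 1) values of the 15 *cpc-1Δ* and WT libraries were fitted with limma 3.58.1 (R 4.3.3), with 1 coefficient for each strain and culture and Benjamini-Hochberg adjustment. Genes at 0 in all libraries were left out (9013 tested). On simulated data for the comparison in 0.1% glucose medium (7158 genes), 68% of changes by 1 and 87% of changes by 2 on the log2 scale were recovered. Each gene had the same mean and spread in every simulated group, and 200 genes were changed. The lower depth of the 4 libraries was not simulated, so recovery in the real data can differ. matplotlib 3.10.9 drew the plots, and pandas 2.3.3 with NumPy 2.4.6 in Python 3.11.15 wrote the tables.

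The genes named are *cpc-1* and 2 annotated genes on each side, the CPC-1 targets, the 10 highest and 10 lowest log2 fold changes (mean of at least 10 RPKM, past the threshold with and without scaling, no overlap), the same among genes with a symbol, and up to 5 called members of each list plus those needed to show what did not change. The comparison, the members and the lists were chosen with earlier results of these data known. Alternatives were other scalings, a pseudocount of 0.1, a filter of 1 RPKM, fits of 4 and 9 libraries, a prior variance that follows the mean, a replicate block, the first transcript alone and leaving out each library. Leaving out isolated values of 0 was chosen after seeing the data. Promoter sequences were not used here.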

Additional observations from a re-analysis of the deposited data

Results flagged for a closer look

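Among *cpc-1*, its neighbors, the CPC-1 targets and the genes named by rank, there were 39 for which the strain difference in 0.1% glucose medium with arginine differed from that in 2% glucose medium, by a test of the difference itself in limma after median-ratio scaling (adjusted *P* below 0.05, as for 41.9% of all genes). The genes named by rank were chosen for large log2 fold changes in 0.1% glucose medium, and these enter the test. That they passed was thus partly set by the choice, and their number cannot be read against the 41.9%. Other members of the gene lists are not given one by one here. Values are the log2 fold change in 0.1% minus that in 2% glucose medium. The media also differ in arginine, and the scale of the RPKM went with the strain in 2% glucose medium, so strain and scale cannot be told apart there. No group had the 4 libraries that a test for a library apart from the others needs.

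*cpc-1*, which *cpc-1Δ* lacks, had a difference of 1.49. In WT it was at 1162, 1129 and 1125 RPKM in 2% glucose medium, against 430 and 418 RPKM in 0.1% glucose medium. In *cpc-1Δ* it was listed between 2.43 and 5.11 RPKM over both media. The neighbor NCU04051 had a difference of −0.63. Among CPC-1 targets the difference was 0.75 for *his-3*, 4.56 for *hom-1*, 1.71 for *thr-4*, 2.19 for *aro-8*, 2.15 for *arg-12*, 1.97 for *aro-7*, 1.19 for *ppm-3* and 3.43 for *arg-10*. On the values as deposited, those of *his-3* (0.19, adjusted *P* = 0.119, limma) and *hom-1* (4.20, adjusted *P* = 0.0641, limma) did not pass, while *thr-5*, which did not pass after scaling (0.10), was at −0.46 (adjusted *P* = 0.0314, limma).

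Among other enzymes of synthesis it was 4.44 for *pyr-3*, 4.85 for *am*, 4.90 for *ilv-6*, 2.99 for *spe-2*, 4.47 for *arg-3*, 4.07 for *ilv-2* and 2.99 for *leu-2*. As deposited, *spe-2* did not pass (2.65, adjusted *P* = 0.0545, limma). *fkr-4* and *prm-1* had differences of 2.45 and 2.06. Of the genes without a symbol that rose in *cpc-1Δ*, it was 3.70 for NCU03117, 2.71 for NCU01257, 2.79 for NCU07547, 2.72 for NCU05650, 2.77 for NCU05782 and 2.66 for NCU03092.

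Among genes that fell in *cpc-1Δ* it was −3.90 for *acu-6*, −4.91 for *cdt-2*, −3.34 for *acu-9*, −4.34 for *gh28-2*, −3.97 for *gla-2*, −3.76 for *gh3-3*, −4.20 for *fbp-1* and −3.87 for *fdh*. Of those without a symbol, it was −5.11 for NCU07133, −3.42 for NCU09698, −5.01 for NCU08771, −5.27 for NCU02238, −4.58 for NCU10732 and −6.33 for NCU09958.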

How the results depend on the processing

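Between 4110 and 4359 genes differed when any 1 library was left out, and between 3355 and 4839 under the other alternatives except the replicate block. The replicate numbers are shared between strains, but the deviations of replicate 1 from the group mean had a correlation of 0.04 between strains, across 4909 genes, so the numbers were not taken to pair libraries. With the replicate number as a block in the 4 libraries, 1686 genes differed, 734 higher and 952 lower in *cpc-1Δ*. Under the first transcript alone, *clr-1* was at 0.90 and *hH2Az* at −1.66, each opposite in sign to the sum of transcripts and not past the threshold. *acu-3* was at −4.46 without WT replicate 2 or without isolated values of 0, and at 5.69 without WT replicate 1, and *cao-2* at −1.13 without isolated values of 0, against values of 0.61 and 1.78 that did not pass. On the values as deposited, the strain difference in 0.1% minus that in 2% glucose medium was −0.46 for *thr-5*, against 0.10 after scaling, and it was more positive in 0.1% glucose medium for 898 of 4574 genes that passed, against 1779 of 3780 after scaling. The cause was not tested. Of 174 named genes and list members past the threshold, 144 kept call and direction under every alternative but the block, the fit of 4 libraries and the isolated 0. Of the 174, 35 lost the call in the fit of 4 libraries and 77 lost it with the block. The low relative depth of the 4 libraries limits what can be read from genes with few RPKM, of which 32.3% passed below a mean of 10 RPKM, against 63.4% above it.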

Other observations

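Families that share a symbol stem were counted after their values had been seen, and they are given as a description without a test. Of 17 genes for the regulatory particle of the 26S proteasome (*rpn* and *rpt*), 15 fell and none rose in *cpc-1Δ* in 0.1% glucose medium, and their summed level was 1589 and 1600 RPKM in *cpc-1Δ*, against 2549 and 2644 RPKM in WT. For *rpt-1* the values were 75.7 and 78.0 RPKM in *cpc-1Δ*, against 157 and 146 RPKM in WT. Of 13 genes for the vacuolar ATPase (*vma*), which acidifies the vacuole, 11 fell. Of 20 peroxin genes (*pex*), for the making of peroxisomes, 15 fell and 1 rose (10 and 0 when the 4 libraries were fitted alone), with *pex11* at 68.1 and 66.5 RPKM in *cpc-1Δ*, against 364 and 337 RPKM in WT. All 3 genes for acyl-CoA dehydrogenases (*acd*) fell, *acd-2* by 2.80 on the log2 scale.

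Of 18 genes for mitochondrial protein import (*tim* and *tom*), 12 rose and 1 fell, with *tom70*, for a receptor of the outer membrane, at 66.5 and 68.6 RPKM in *cpc-1Δ*, against 22.6 and 23.1 RPKM in WT. Of 29 genes for subunits of respiratory complex I (*nuo*), 1 rose and 17 fell (0 and 8 in the fit of 4 libraries), with a median log2 fold change of −0.28, and of 16 genes with a *tca* symbol 3 rose and 9 fell. Of 6 genes for purine synthesis (*ad*) 5 rose, with *ad-7* at 39.9 and 40.8 RPKM in *cpc-1Δ*, against 3.96 and 3.23 RPKM in WT. Of 4 genes with an *ace* symbol, whose mutants need acetate, 3 rose and none fell, with a median log2 fold change of 2.14 and a summed level of 1843 and 1817 RPKM in *cpc-1Δ*, against 425 and 430 RPKM in WT. For comparison, 22.3% of all genes rose and 26.9% fell. In 2% glucose medium the median log2 fold changes, after median-ratio scaling, were −0.40 for *acd*, 0.19 for *tim* and *tom* and 0.74 for *ace*, and lay between −0.09 and 0.02 for the other 6 families.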
